A study of Schizosaccharomyces pombe with 50 samples.

Results

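The genes described here are the amino acid biosynthesis genes of fission yeast (Schizosaccharomyces pombe). They were chosen by name, as each row of the ORF tables whose gene name is arg, his, lys, leu, trp, met, aro, ilv, thr, pro, tyr, or ser followed by 1 or 2 digits. This gave 48 genes of 6613 windows, with 10 arg, 8 met, 6 his, 6 lys, 4 trp, 3 leu, 3 ilv, 3 ser, 2 aro, and 1 each of thr, pro, and tyr. By RefSeq annotation most of them encode an enzyme of the pathway in their name. A few do not make an amino acid themselves: arg82 encodes an inositol polyphosphate kinase, met8 a siroheme synthase, which makes the cofactor of sulfite reductase, and lys7 the enzyme that attaches a cofactor to the Lys1 protein. The 48 genes lie on chromosomes I (21 genes), II (23), and III (4), with 25 on the plus and 23 on the minus strand.

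ChIP-seq was performed on vegetative (V) cells, harvested in mid-log phase in glutamate minimal medium (PMG), and on quiescent (Q) cells, harvested after 24 h in the same medium without nitrogen (PMG-N). All cells were of strain Hu3112, with the genotype mat1-M smt-0 pht1-myc, so that controls and starved cells alike carried a Myc-tagged Pht1, the H2A.Z of fission yeast. The 8 antibodies recognized histone H3, its marks H3K4me3, H3K9ac, H3K9me2, and H3K9me3, the Myc tag on H2A.Z, and the S5 and S2 phosphorylated forms of the RNA pol II C-terminal domain. Each had 3 V and 3 Q libraries (48 in all), and 2 input samples were not used here. The study calls its replicates biological, while the labels do not name separate cultures, so p-values measure the spread between these libraries, which may be technical.

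Fission yeast can make each amino acid from glutamate, ammonium, and carbon skeletons of central metabolism. Arginine, lysine, leucine, isoleucine, and valine are made by dedicated chains of enzymes, methionine and cysteine need reduced sulfate, and the aromatic amino acids branch from chorismate. Without a nitrogen source the cells divide, arrest in G1, and live on amino acids recycled from their own proteins. RNA pol II carries S5 phosphorylation early and S2 phosphorylation later in the transcription of a gene, H3K4me3 marks the 5′ part of transcribed genes, and H2A.Z marks nucleosomes next to promoters.

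The values are normalized reads, that is, the reads of a window over a size factor that was set for each library. For the 34 of the 48 genes with a single exon, the ORF window reaches 200 bp beyond the annotated 3′ end and 105 to 648 bp beyond the 5′ end, and the TSS window covers 400 bp from the same lower coordinate. A size factor sets the typical window of each library to 1 level, so a change is always measured against the rest of the table. Changes were tested with limma on log2(value + 1), with Benjamini-Hochberg adjustment over all windows tested, and a gene is said to rise or fall at an adjusted p under 0.05. This scale makes the changes of low windows smaller than they are. The ORF windows of the 48 genes were 515 to 5325 bp long (median 2085.5, against 1551 for all windows). Reads were counted without strand in these tables as far as the sources say, and 42 of the 48 ORF windows overlap the window of another gene, 11 of them over more than 50% of their length. Signal of the neighbour is then part of the value. The ORF tables held 856936 to 20673131 reads per library, of which 7972 to 175609 fell in the 48 genes.

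Replicate 1 of the Q cells stood apart. In ORF windows, 20 of the 28 pairs of its 8 antibodies had a chi-square per degree of freedom of their reads under 1.5, with a median of 1.1, so that most of these libraries hardly differed from each other beyond sampling noise. The medians were 17.5 and 25.9 in Q replicates 2 and 3 and 52.3 to 85.2 in the V replicates. In the TSS windows of the 48 genes alone, 6 antibodies (without H3 and S2) had a mean Spearman's rho of 0.93 with each other in Q replicate 1, against 0.189 and 0.103 in Q replicates 2 and 3. The counts of the 48 genes, and the changes of those shown with a value per library, are therefore also given without replicate 1. For both RNA pol II antibodies, the reads of Q replicates 2 and 3 had a chi-square per degree of freedom of 0.876 (S5) and 0.98 (S2). They thus differed by no more than sampling noise and were counted as 1 sample, which leaves n = 2 for Q cells. Without replicate 1, a single Q sample then remains for these antibodies, which is assumed to vary like the V libraries. Replicates 2 and 3 of H2A.Z were also near sampling noise, with 1.83 (V) and 1.29 (Q) in ORF windows and 0.99 and 1.08 in TSS windows. They were kept as separate samples, so the p-values for H2A.Z may be too small. Replicates 2 and 3 also gave 1.38 for H3K9me2 in V and 1.47 for H3 in Q cells in ORF windows. In TSS windows they gave 1.54 for H3K4me3 in V cells. The other cell state gave 5.53, 5.7, and 3.27. These were kept separate as well, so the p-values for these antibodies may also be too small.

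RNA pol II S5 was lower in Q cells over most amino acid biosynthesis genes. It fell in 34 of the 48 ORF windows (70.8%) and rose in 1, against 22.8% of all tested windows down and 23% up. The median log2 change of the 48 genes was −0.43, against 0.01 for all windows. The falls ranged from −0.23 to −1.32, all 34 had each Q library below each V library, and the standard errors of the 48 genes ranged from 0.06 to 0.26. Beyond a log2 change of −1, S5 fell at 3 genes, met17, ser3, and lys4, while 1.17% of all windows did so. Without replicate 1, 37 genes fell and 1 rose, against 30.3% of all windows down and 31.5% up. The fall was then smaller by a factor of over 1.5 at met26 (from −0.84 to −0.38), ilv5 (−0.78 to −0.41), and arg4 (−0.61 to −0.40). Of the 34 falls, 23 were called in each of the 10 alternatives tried, and the count of falls in the alternatives was between 24 and 37.

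**Figure D1:**
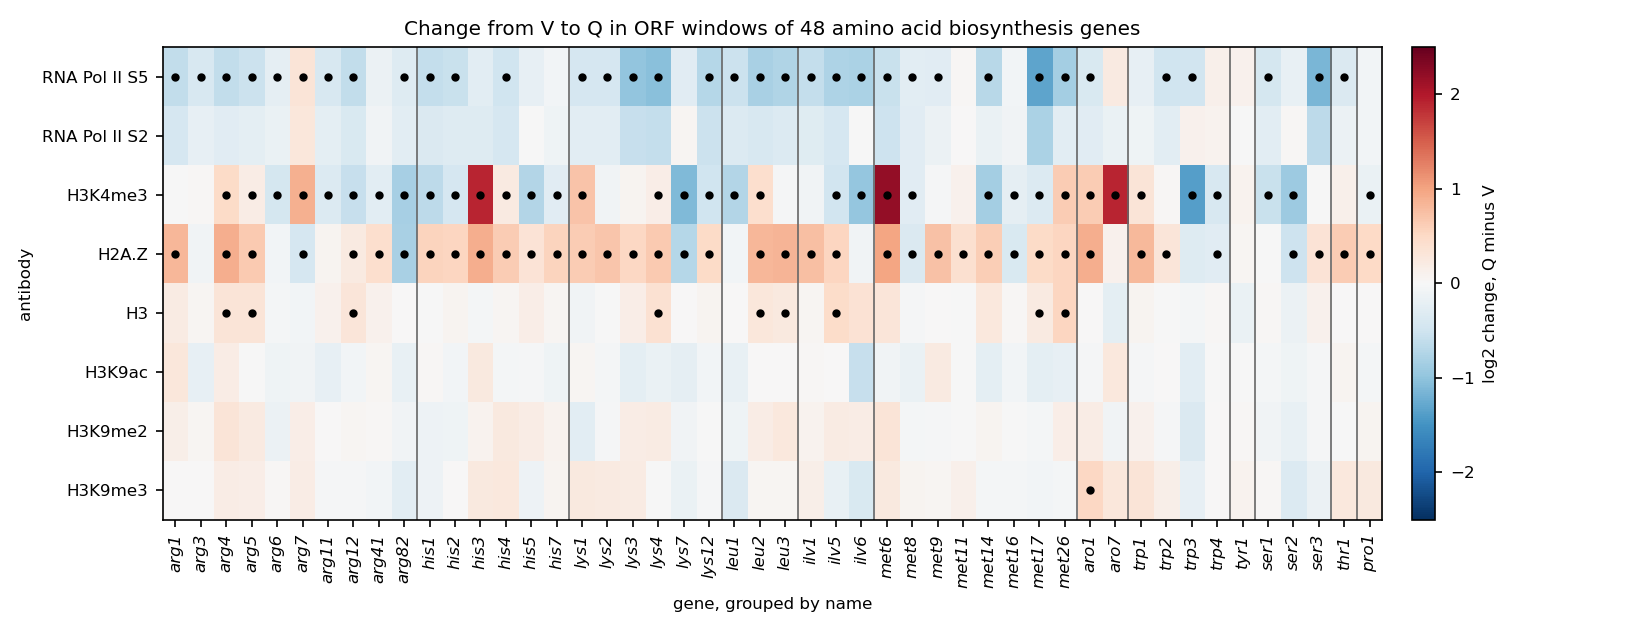
Log2 change from V to Q (colour) in the ORF window of each of the 48 genes (columns, grouped by name) for each antibody (rows). Dots mark an adjusted p under 0.05 (limma). The S5 row is blue over 34 dotted genes, the H2A.Z row is red over 32 dotted genes, and the H3K4me3 row holds dots of both colours.

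The largest fall of S5 was at met17, which encodes homocysteine synthase, the enzyme that fixes sulfide into a carbon skeleton. Its V libraries had 4583, 3004, and 3263 normalized reads and its Q libraries 1424, 1512, and 1516. The log2 change was −1.32 (standard error 0.16, adjusted p = 0.00666 by limma). The V and Q libraries did not overlap, and V replicate 1 was the highest library. Without replicate 1 the log2 change was −1.05.

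Next came ser3, which encodes the D-3-phosphoglycerate dehydrogenase that opens the serine pathway. Its values were 5316, 3592, and 3865 in V and 1968, 1962, and 2010 in Q libraries. The log2 change was −1.13 (standard error 0.14), or −0.91 without replicate 1. At lys4, for homocitrate synthase, the first enzyme of lysine synthesis, V libraries had 4576, 3000, and 3263 and Q libraries 1630, 1876, and 1931. The log2 change of lys4 was −1.05 (standard error 0.19), or −0.72 without replicate 1. In all 3 genes V replicate 1 lay well above the other V libraries, and each Q library lay below all of the V libraries. The window of ser3 shares 29.3% of its length with that of another gene, met17 19.1%, and lys4 16.1%.

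The single rise was at arg7, for argininosuccinate lyase, the last enzyme of arginine synthesis. It had 1129, 1159, and 1108 normalized reads in V and 1484, 1354, and 1381 in Q libraries, with no overlap. The log2 change was 0.32 (standard error 0.06, adjusted p = 0.0167 by limma) and 0.27 without replicate 1. Without replicate 3 it no longer passed (0.31, adjusted p = 0.0671 by limma), and the adjusted p over the 10 alternatives ranged from 0.00208 to 0.0671. The second gene with the same annotated product, arg41, had a log2 change of −0.15 and did not pass.

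**Figure D2:**
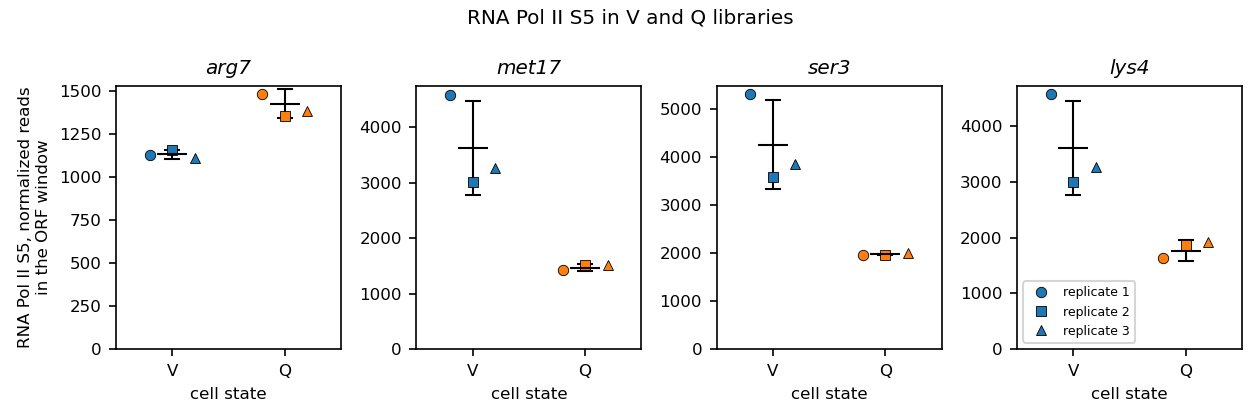
RNA pol II S5 in the ORF window of arg7, met17, ser3, and lys4, in normalized reads on a linear axis from 0, for each V and Q library. Bars are the mean and the SD over 3 V samples and 2 Q samples, with Q replicates 2 and 3 as 1 sample. Each Q library lies above the V libraries at arg7 and below them at the other genes.

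The 250 bases upstream of the annotated start were read from the RefSeq genome (ASM294v3) for each gene, to show those of the largest S5 fall. S5 was measured over the whole ORF window and not at these bases alone. The motifs GATAAG (the core of GATA factor sites), TGACTC (the core of the Gcn4 site of budding yeast), and TATAAA (the TATA box) were searched on both strands, the last added after the values had been seen. Upstream of met17 (chrII:465130-465379, plus strand) TATAAA, in capitals below, begins 33 bases before the annotated start, and the other motifs have no match.
met17: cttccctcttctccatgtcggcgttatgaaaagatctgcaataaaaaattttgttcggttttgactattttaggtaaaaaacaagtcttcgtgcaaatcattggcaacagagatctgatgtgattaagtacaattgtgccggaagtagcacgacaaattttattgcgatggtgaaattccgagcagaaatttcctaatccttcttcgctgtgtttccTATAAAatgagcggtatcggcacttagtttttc

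TATAAA was found upstream of 27 of the 48 genes (56.2%) and of 44.4% of 5112 protein-coding genes. Among the 34 genes with a fall of S5 it was found in 20 (58.8%), and among the other 14 in 7 (50%). GATAAG was found upstream of 7 of the 48 genes (14.6%, against 10.2% of all) and TGACTC upstream of 2 (4.17%, against 5.63%). At arg7, GATAAG begins 78 bases before the start. These are matches of letters and not known sites.

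By pathway, S5 fell in 8 of the 10 arg genes. The falls were −0.62 at arg1 (acetylornithine aminotransferase), −0.39 at arg3 (ornithine carbamoyltransferase), −0.61 and −0.54 at arg4 and arg5 (the parts of the arginine-specific carbamoyl-phosphate synthase), −0.23 at arg6 (acetylglutamate synthase), −0.41 at arg11 (acetylglutamate kinase and the reductase after it), −0.62 at arg12 (argininosuccinate synthase), and −0.33 at arg82. H3K4me3 rose at arg4 (0.47), arg5 (0.19), and arg7 (0.89) and fell at arg6 (−0.43), arg11 (−0.35), arg12 (−0.58), arg41 (−0.27), and arg82 (−0.82). It did not pass at arg1 (−0.01) and arg3 (0.02). Relative to H3, the H3K4me3 estimate of arg5 was below 0 (−0.14). S5 thus fell at the first enzyme of the pathway and at most later ones, while H3K4me3 went in either direction. The windows of arg4, arg41, and arg82 lie wholly within windows of other genes.

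Of the 6 his genes, S5 fell at his1 (−0.60), his2 (−0.56), and his4 (−0.50) and did not pass at his3 (−0.27), his5 (−0.20), and his7 (−0.06). The gene his1 encodes the ATP phosphoribosyltransferase that starts the pathway, his2 the histidinol dehydrogenase that ends it, and his4 imidazoleglycerol-phosphate synthase. H3K4me3 rose at his3 (1.90), for histidinol-phosphate aminotransferase, and at his4 (0.23). It fell at his1 (−0.65), his2 (−0.42), his5 (−0.72), for imidazoleglycerol-phosphate dehydratase, and his7 (−0.28), for the enzyme of the second and the third step.

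Of the 6 lys genes, S5 fell at 5, by −1.05 at lys4, −0.98 at lys3 (saccharopine dehydrogenase), −0.72 at lys12 (homoisocitrate dehydrogenase), and −0.42 each at lys1 (aminoadipate-semialdehyde dehydrogenase) and lys2 (homoaconitate hydratase). It did not pass at lys7 (−0.28). H3K4me3 rose at lys1 (0.71) and lys4 (0.17, but −0.21 relative to H3), fell at lys7 (−1.11) and lys12 (−0.49), and did not pass at lys2 (−0.10) and lys3 (0.06).

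All of the leu and ilv genes, for the branched-chain amino acids, showed a fall of S5. It was −0.54 at leu1 (3-isopropylmalate dehydrogenase), −0.82 at leu2 (3-isopropylmalate dehydratase), −0.75 at leu3 (2-isopropylmalate synthase), −0.60 at ilv1 and −0.78 at ilv6 (the catalytic and regulatory subunits of acetolactate synthase), and −0.78 at ilv5 (acetohydroxyacid reductoisomerase). H3K4me3 rose at leu2 (0.42), fell at leu1 (−0.73), ilv5 (−0.47, or −0.26 without replicate 1), and ilv6 (−0.96), and did not pass at leu3 (−0.04) and ilv1 (−0.10).

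Of the 8 met genes, S5 fell at 6. Besides met17 these were met26 (−0.84), for the homocysteine methyltransferase that makes methionine, met14 (−0.70), for adenylyl-sulfate kinase, met6 (−0.56), for homoserine O-acetyltransferase, met9 (−0.28), for a methylenetetrahydrofolate reductase, and met8 (−0.27). It did not pass at met11 (0.03), the other methylenetetrahydrofolate reductase, and met16 (−0.07), for phosphoadenosine phosphosulfate reductase. The fall at met9 and the value of met11 were not tested against each other. H3K4me3 rose at met6 (2.20) and met26 (0.63), fell at met8 (−0.29), met14 (−0.84), met16 (−0.22), and met17 (−0.34), and did not pass at met9 (−0.02) and met11 (0.11).

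Of the aromatic pathway, S5 fell at aro1 (−0.39), which encodes the enzyme of several steps to chorismate, and at trp2 (−0.50, tryptophan synthase) and trp3 (−0.49, component I of anthranilate synthase). It did not pass at aro7 (0.22, chorismate mutase), trp1 (−0.21, component II of anthranilate synthase), trp4 (0.14, phosphoribosylanthranilate transferase), or tyr1 (0.10, prephenate dehydrogenase). H3K4me3 rose at aro1 (0.64), aro7 (1.91), and trp1 (0.32), fell at trp3 (−1.37) and trp4 (−0.40), and did not pass at trp2 (0.04) and tyr1 (0.08).

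Of the others, S5 fell at ser1 (−0.43, phosphoserine aminotransferase), ser3, and thr1 (−0.36, homoserine kinase) and did not pass at ser2 (−0.19, phosphoserine phosphatase) and pro1 (−0.08, gamma-glutamyl phosphate reductase). H3K4me3 fell at ser1 (−0.55), ser2 (−0.91), and pro1 (−0.16) and did not pass at ser3 (−0.02) and thr1 (0.12).

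RNA pol II S2 had a median log2 change of −0.26 over the 48 genes, against 0.01 for all windows, and 42 of the 48 estimates lay below 0. The reads of S2 differed from those of H3 with a chi-square per degree of freedom of 35.4 to 98.7 in V replicates. In Q replicates 1, 2, and 3 it was 0.809, 1.1, and 2.36, so S2 of Q replicates 1 and 2 hardly differed from H3 beyond sampling noise. No gene passed with limma, and no window of the table did (0% up and 0% down of 6579). With an unadjusted p under 0.05, 18 of the 48 genes were lower and 1 higher, against 931 and 796 of all 6579 windows. The quasi-likelihood test of edgeR called 0 in either direction. The count depended on the setting, with 13 genes down and 0 up without replicate 1, where 6.25% of all windows were down and 6.43% up. With all 6 libraries kept apart, 15 genes were down and 1 up, against 10.9% and 8.74% of all windows. The largest change was again at met17, with 2707, 2812, and 3360 normalized reads in V and 1697, 1692, and 1661 in Q libraries. Its log2 change was −0.79 (standard error 0.11, adjusted p = 0.061 by limma), or −0.87 without replicate 1, and its V and Q libraries did not overlap. In the TSS table, the S2 column of V replicate 3 equals that of H3K9me2 in 6612 windows and differs in 1, so S2 was not tested there.

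As a level, each antibody was divided by H3 of the same replicate number, which cancels the length of the window, and set relative to the median window. The tables were normalized separately, so this level is a description. In V cells, the 48 genes had a median S5 level of 0.47 on the log2 scale, with 43 of the 48 above the median window. The highest S5 levels in V cells were at lys4 (1.56 ± 0.40, SD, n = 3), met17 (1.55 ± 0.39), and met26 (1.49 ± 0.55), which lie in the top 3 percent of windows. The lowest were at aro7 (−0.45 ± 0.13), arg7 (−0.37 ± 0.09), and tyr1 (−0.27 ± 0.10). The highest and lowest genes were far apart compared with these SDs, while lys4, met17, and met26 differed among themselves by less than their SD.

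In Q cells the levels drew together. The S5 level of the 48 genes ranged from −0.10 to 0.16, against −0.45 to 1.56 in V cells, and their median was 0.02. Over all windows, the SD of the S5 level was 0.568 to 0.732 in the V libraries and 0.0831 to 0.13 in the Q libraries. That of H3K4me3 was 0.931 to 1.27 and 0.0755 to 0.264, and that of S2 0.3 to 0.651 and 0.0734 to 0.101. In Q replicates 2 and 3 alone it was 0.128 to 0.13 for S5, 0.16 to 0.264 for H3K4me3, and 0.08 to 0.101 for S2. The reads of S5 differed from those of H3 with a chi-square per degree of freedom of 98.5 to 130 in V replicates and of 1.04, 3.74, and 3.87 in Q replicates. Genes with a high S5 level in V cells were thus those with the largest falls. Across the 48 genes the S5 change had a Pearson correlation of −0.95 with the S5 level in V cells, and across 6579 windows of −0.87. The V value enters both measures and the genes share libraries, so no p-value is given. The part of this narrowing of all windows in the falls of the 48 genes was not tested.

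**Figure D3:**
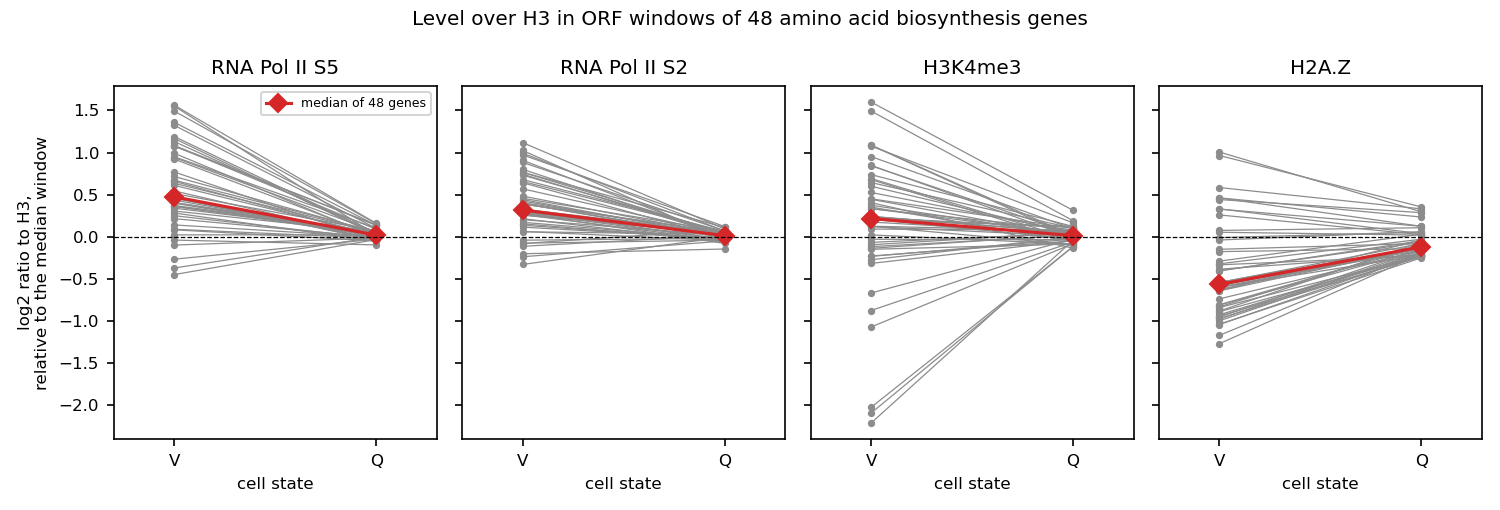
Log2 ratio of RNA pol II S5, S2, H3K4me3, and H2A.Z to H3 in V and Q cells, relative to the median window (dashed line), for each of the 48 genes (grey) and their median (red). Points are means over replicates. The S5 median goes from 0.47 to 0.02 and the H2A.Z median from −0.57 to −0.12.

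Relative to the typical window of each library, H3K4me3 was lower in Q cells at the 5′ ends and higher at the 3′ ends that could be read. In ORF windows, its reads differed from those of H3 with a chi-square per degree of freedom of 75.8 to 237 in V replicates. In Q replicates this was 0.903, 4.31, and 12.3. The part of this narrowing in the changes at either end was not tested, so a rise is not read as a gain of the mark. The TSS window begins at the lower coordinate of each gene, so it lies at the 5′ end of plus-strand genes and at the 3′ end of minus-strand genes. It holds the first 10 to 295 bp of 24 of the 25 plus-strand genes, and at arg7 it lies wholly upstream of the annotated start. Of the 25 plus-strand genes, H3K4me3 fell in 21 and rose in 0, with a median log2 change of −1.01, against 64.8% of plus-strand windows down, 24.9% up, and a median of −0.75. Of the 23 minus-strand genes, it rose in 23 and fell in 0, with a median of 2.19, against 64.5% of minus-strand windows up, 22.7% down, and a median of 1.24. Without arg7, 20 of the 24 plus-strand genes fell. Without replicate 1 the counts were 21 down of 25 and 23 up of 23, against 65.5% of plus-strand windows down and 65.0% of minus-strand windows up. The direction at each end is that of most windows in the tables.

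Among the plus-strand genes the largest fall in the TSS window was at ser2, for phosphoserine phosphatase. Its V libraries had 454, 383, and 350 normalized reads and its Q libraries 119, 144, and 165, without overlap. The log2 change was −1.47 (standard error 0.14, adjusted p = 1.31e-11 by limma), or −1.24 without replicate 1. The TSS window of ser2 overlaps an antisense gene, whose window covers 96.1% of the ORF window. The highest change was at arg5, with 75.1, 124, and 135 in V and 116, 129, and 117 in Q libraries, which overlapped (log2 change 0.16, or −0.07 without replicate 1, not passed). The 250 bases upstream of ser2 (chrII:1870041-1870290, plus strand) are shown with TATAAA or its reverse complement TTTATA in capitals.
ser2: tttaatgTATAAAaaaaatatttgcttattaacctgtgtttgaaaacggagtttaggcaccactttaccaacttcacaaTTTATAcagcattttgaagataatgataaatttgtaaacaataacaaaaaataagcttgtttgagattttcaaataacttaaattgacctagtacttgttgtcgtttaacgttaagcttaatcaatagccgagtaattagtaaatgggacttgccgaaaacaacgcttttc

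Over ORF windows, H3K4me3 rose in 13 and fell in 23 of the 48 genes, against 40.9% of all windows up and 40% down. The median log2 change was −0.10, against −0.01 for all windows. Beyond a log2 change of 1, it rose at 3 genes and fell at 2, against 19.4% and 13.8% of all windows. Without replicate 1, 14 rose and 22 fell, against 42.9% and 42.5% of all windows. Without replicate 2, 9 rose and 15 fell, against 32.6% and 31.0%. The largest changes followed what the window covered. For a gene with several exons the ORF window ends in or after the exon of the lowest coordinate, so that in 7 of the 48 genes it leaves out at least 20% of the gene, a grouping made after the values were seen. It leaves out the 5′ part at met6 (67.5% of the gene), aro7 (51.2%), and his3 (49.4%) and the 3′ part at ilv6 (86.6%), trp3 (80.4%), lys7 (64.1%), and ser2 (28.6%).

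The 3 genes with the largest rises of H3K4me3 were the 3 without the 5′ part. At met6, V libraries had 186, 81.9, and 89.5 normalized reads and Q libraries 591, 499, and 457. The log2 change was 2.20 (standard error 0.22), and no Q library was near the V libraries. At aro7, V libraries had 134, 121, and 77.6 and Q libraries 457, 410, and 369 (log2 change 1.91, standard error 0.17). At his3, V libraries had 165, 139, and 119 and Q libraries 596, 516, and 473 (log2 change 1.90, standard error 0.12). For these genes limma gave adjusted p-values between 0.000495 and 0.000776, and without replicate 1 the log2 changes were 2.47, 1.99, and 1.93.

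The 4 genes without the 3′ part had the 4 largest falls. At trp3, V libraries had 544, 618, and 664 normalized reads and Q libraries 185, 240, and 290 (log2 change −1.37, standard error 0.12, and −1.28 without replicate 1). The window of trp3 lies wholly within the window of rpb3, a subunit gene of RNA pol II itself. At lys7, V libraries had 358, 476, and 499 and Q libraries 186, 192, and 234 (−1.11, standard error 0.13, and −1.20 without replicate 1). At ilv6, V libraries had 471, 380, and 395 and Q libraries 161, 217, and 270 (−0.96, standard error 0.22), and the change was −0.67 without replicate 1. In each of these genes the V and Q libraries did not overlap.

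The same held over the tables. Of 702 tested windows without the 5′ part, 62.8% were up and 19.5% down for H3K4me3, and of 1190 without the 3′ part, 7.06% were up and 85.7% down. In the 41 amino acid biosynthesis genes whose window covers at least 80% of the gene, H3K4me3 rose in 10 and fell in 19 and each change was smaller than 1, with a median of −0.10. Of all such windows 46.4% were up and 31.8% down, and their median was 0.14. Across these 41 genes the change had a Pearson correlation of 0.70 with the length of the window, and across 4592 windows of 0.17. The long genes aro1, lys1, and met26 were among the rises, while H3K4me3 fell at arg11, whose window is longer than that of met26 (3403 against 3189 bp). In V cells, the level of H3K4me3 over H3 was highest at trp3 (1.60 ± 0.17, SD, n = 3), ilv6 (1.49 ± 0.14), and met14 (1.09 ± 0.03) and lowest at aro7 (−2.22 ± 0.53), his3 (−2.10 ± 0.40), and met6 (−2.03 ± 0.75). In Q cells all 48 genes lay between −0.14 and 0.31.

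**Figure D4:**
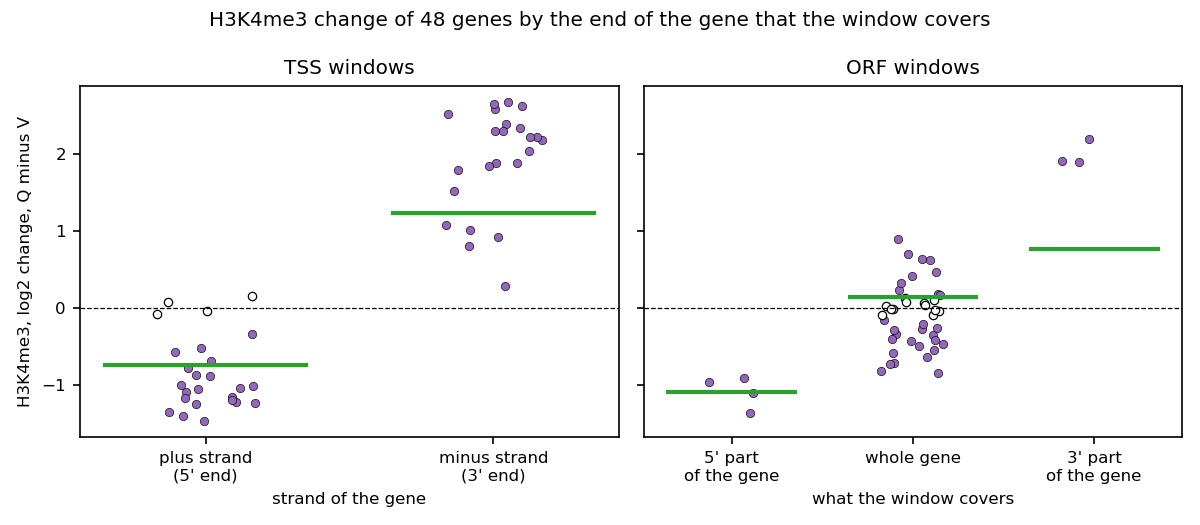
Log2 change of H3K4me3 from V to Q in TSS windows by strand (left) and in ORF windows by the part of the gene that they cover (right). Each point is 1 of the 48 genes (filled, adjusted p under 0.05; open, not passed), and green lines are the medians of all tested windows of that kind. All 23 minus-strand genes lie above 0, and 23 of the 25 plus-strand genes lie below it.

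In TSS windows S5 fell in 14 and rose in 1 of the 25 plus-strand genes, against 19.8% down and 25.3% up, and fell in 13 and rose in 1 of the 23 minus-strand genes, against 24.1% down and 20.9% up. The minus-strand count moved with the libraries used. Without replicate 1, 16 of the 25 and 21 of the 23 fell and 2 and 0 rose, against 24.8% and 41.7% of all windows down. Without replicate 2, 13 of the 25 and 9 of the 23 fell, and without replicate 3, 11 and 8, where 11.4% to 12.8% of all windows were down. The medians were −0.43 at the 5′ and −0.40 at the 3′ end, where those of all windows were 0.06 and −0.03.

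H2A.Z was higher in Q cells over most of the 48 genes. In ORF windows it rose in 32 (66.7%) and fell in 7, against 38.3% of all windows up and 38.9% down, with a median log2 change of 0.49, against −0.01. All 32 rises had each Q library above each V library. Without replicate 1, 32 rose and 9 fell, against 42.1% and 44.0% of all windows. Relative to H3, 29 rose and 7 fell, against 30.4% and 34.6%. Rises that did not hold relative to H3 included those of arg12 (from 0.23 to −0.07), ilv5 (from 0.53 to 0.07), and met26 (from 0.54 to −0.0041), which were also among the genes with a rise of H3. Of the 34 genes with a fall of S5, 25 had a rise of H2A.Z and 2 a fall, and of the other 14 genes 7 had a rise. With a rise in 66.7% of all 48 genes, this overlap is not read as a link between the 2 changes. In V cells the median level of H2A.Z over H3 was −0.57, with 11 of the 48 genes above the median window, and in Q cells it was −0.12, so these levels also drew closer to the median window.

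The largest rise of H2A.Z was at met6, with 510, 339, and 394 normalized reads in V and 1002, 734, and 731 in Q libraries (log2 change 0.99, standard error 0.07). At arg4, the large subunit gene of the carbamoyl-phosphate synthase, V libraries had 2388, 1956, and 1990 and Q libraries 4677, 3641, and 3626 (0.91, standard error 0.04). At his3, V libraries had 551, 415, and 423 and Q libraries 1027, 775, and 801 (0.91, standard error 0.06). In all 3 genes replicate 1 was the highest library of each cell state, and without it the log2 changes were 1.00, 0.88, and 0.91.

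The largest fall of H2A.Z was at arg82, with 1463, 1705, and 1721 normalized reads in V and 733, 1069, and 1022 in Q libraries (−0.81, standard error 0.08). Its window lies wholly within other windows, and 92.7% of it within that of an antisense gene. At lys7, V libraries had 705, 764, and 762 and Q libraries 339, 525, and 533 (−0.70, standard error 0.13). At ser2, V libraries had 1269, 1507, and 1487 and Q libraries 811, 1112, and 1090 (−0.51, standard error 0.06). Here replicate 1 was the lowest library of each cell state, and without it the changes were −0.71, −0.53, and −0.44. For these 6 genes limma gave adjusted p-values between 0.000327 and 0.00544.

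**Figure D5:**
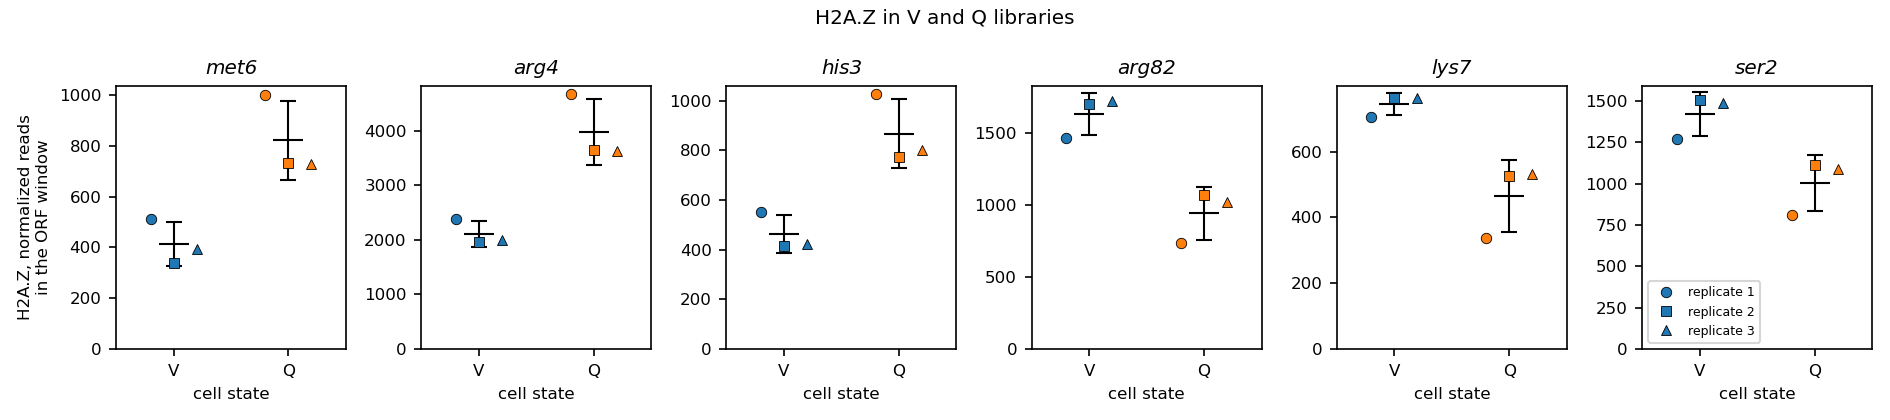
H2A.Z in the ORF window of the genes with the largest rises (met6, arg4, his3) and falls (arg82, lys7, ser2), in normalized reads on a linear axis from 0, for each V and Q library. Bars are the mean and the SD over 3 libraries. V and Q libraries do not overlap in any of the 6 genes, and replicate 1 (circles) is farthest from V in the Q cells.

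In TSS windows of plus-strand genes, the counts for H2A.Z were near those of all windows. It rose in 6 and fell in 12 of 25, against 25.5% up and 51.2% down. In TSS windows of minus-strand genes, which are other genes, it rose in 22 and fell in 0 of 23, against 54.1% up and 25.6% down. The medians were −0.14 and 0.81, against −0.29 and 0.32 for all windows. Without replicate 1, 7 rose and 12 fell on the plus strand, against 26.9% up and 57.3% down. On the minus strand 21 rose and 0 fell, against 54.2% up and 30.7% down.

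Histone H3 rose in 9 of the 48 ORF windows and fell in 0, against 8.81% up and 2.92% down of all windows. At an unadjusted p under 0.05, 2 genes were lower, against 836 of all 6580 windows, and edgeR called 0 down. The 9 genes were arg4, arg5, arg12, lys4, leu2, leu3, ilv5, met17, and met26. S5 fell in each of them, where it fell in 70.8% of all 48 genes. The largest rise was at met26, with 2362, 2550, and 2453 normalized reads in V and 3469, 3721, and 3555 in Q libraries (log2 change 0.54, standard error 0.05, adjusted p = 0.00456 by limma). The libraries did not overlap. Its change was 0.54 without replicate 1 as well. Without replicate 1, H3 rose in 15 and fell in 5 genes, near the 27.1% of all windows up, with 23.4% down.

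Few of the 48 genes passed for the H3K9 marks. H3K9ac passed in 0 of the 48 genes with limma and with edgeR, as it did in 0% up and 0% down of all windows. No window of the table passed, so this count says nothing about the 48 genes in particular. When replicate 3 was left out, 2 rose and 2 fell, against 7.29% and 12.9% of all windows. At an unadjusted p under 0.05, 2 genes were higher and 2 lower for H3K9ac, against 476 and 456 of all 6580 windows. Its largest difference was at ilv6, with 792, 889, and 1045 normalized reads in V and 436, 579, and 862 in Q libraries, which overlapped (log2 change −0.59, standard error 0.15, adjusted p = 0.284 by limma, and −0.45 without replicate 1). H3K9me2 passed in 0 of the 48 genes with either tool, against 0.821% up and 1.08% down, and 1 gene was higher at an unadjusted p under 0.05. The largest difference was at trp3, with 131, 132, and 115 in V and 94.7, 96.0, and 103 in Q libraries, which did not overlap (log2 change −0.36, or −0.31 without replicate 1, not passed). H3K9me3 rose in 1 gene and fell in 0, against 11.1% up and 5.35% down. With an unadjusted p under 0.05 there were 8 genes higher and 3 lower, against 1372 and 944 of all 6574 windows, and edgeR called 0 down. The rise was at aro1, with 1160, 1529, and 1543 in V and 1694, 1899, and 2467 in Q libraries (log2 change 0.51, standard error 0.11, adjusted p = 0.0105 by limma, and 0.49 without replicate 1), and with no replicate block it did not pass (adjusted p = 0.276 by limma). Without replicate 1, H3K9me2 passed in 0 genes up and 1 down, against 9.87% and 5.19% of all windows. H3K9me3 then passed in 2 up and 2 down, against 14.5% and 8.72%. H3K9ac passed in 0, against 4.04% of all windows up and 0.957% down.

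Other genes of amino acid metabolism were read from lists against the same shares of all windows. Of a list of 19 further genes, most of them for biosynthesis, 14 were found by name in the tables. S5 fell in 9 of them and rose in 1, against 22.8% of all windows down and 23% up. The median log2 change of S5 was −0.61. H2A.Z rose in 12 and fell in 0, against 38.3% of all windows up and 38.9% down. Without replicate 1, S5 again fell in 9 and rose in 1, and H2A.Z rose in 12 and fell in 0. The S5 falls included sir1, for the sulfite reductase beta subunit (−1.01), sua1, for sulfate adenylyltransferase (−0.95), asn1, for asparagine synthetase (−0.95), and gdh2, for the NAD-dependent glutamate dehydrogenase (−1.16). At gdh1, for the NADP-dependent enzyme that fixes ammonium, the log2 change of S5 was −0.24 and did not pass, and at gln1, for glutamine synthetase, it was −0.46 and did not pass. Of the 2 genes found for arginine breakdown, S5 rose at car1, for arginase, from 827, 727, and 708 in V to 1262, 1335, and 1352 in Q libraries (log2 change 0.78, standard error 0.09). It fell at car2, for ornithine transaminase (−0.30).

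Of 6 genes of general amino acid control, S5 rose at the eIF2 alpha kinase genes hri1 (0.59) and hri2 (0.43) and fell at gcn2 (−0.59), for the kinase that senses uncharged tRNA, and at cpc2 (−0.85), for the ribosomal protein RACK1. As a check of the cell state, 6 genes known to be induced by nitrogen starvation (isp4, isp5, isp6, fnx1, mei2, and ste11) were read in the same way. H3K4me3 rose in 5 of them and fell in 0, with a median log2 change of 1.50. S5 rose in 2, isp5 (0.34) and fnx1 (0.46), and fell in 1, ste11 (−0.35). H3 itself rose in 5 (median 0.52), H2A.Z in 4, H3K9me3 in 4, and H3K9me2 in 3, so the rise was not particular to H3K4me3. Of all windows, 40.9% rose for H3K4me3, 8.81% for H3, 38.3% for H2A.Z, 11.1% for H3K9me3, and 0.821% for H3K9me2. For S5, 23% of all windows rose and 22.8% fell. Without replicate 1, S5 rose in 4 of these 6 genes and fell in 1.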

How the data were processed

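Per the labels, the authors aligned single-end reads with BWA 0.7.17 to ASM294v2, used SAMtools 1.17, deepTools 3.3.2, and DESeq2, and deposited a signal: reads per window divided by a size factor of each library. Whether the spike-in entered these values is not given in the sources. The deposited log2 fold changes and p-values were not used. Whole reads were recovered in all 96 value columns. The TSS tables carry row numbers only and were taken in the row order of the ORF tables. Strand, exons, and products came from RefSeq annotation of ASM294v3, matched by identifier for 6521 windows and all 48 genes, and upstream bases from the genome of that build.

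Each antibody was fitted alone over its whole table, on log2(value + 1), with limma 3.58.1 under R 4.3.3, with a trend of variance on mean and Benjamini-Hochberg adjustment. A window was tested if 3 or more libraries reached a value of 10. The replicate number was a block, since the study removed batch effects, and for RNA pol II the block was replicate 1 against the others. Same-numbered V and Q libraries deviated together in all 3 pairs (r above 0.1) for H2A.Z alone in ORF windows (0.516, 0.463, and 0.352), and for H2A.Z and H3K9ac in TSS windows. In ORF windows r was −0.364, −0.101, and −0.37 for S5 and −0.526, 0.0505, and −0.543 for H3. The block thus does not stand for a shared deviation of these 2 antibodies. Alternatives were no block, library totals, a pseudocount of 5, no filter, edgeR 4.0.16 on recovered reads, the change relative to H3, each replicate left out, and, for RNA pol II, all 6 libraries.

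All 48 genes are named once with their H3K4me3 and S5 change. Values per library are given for the largest changes that passed with the same direction in all 3 pairs, 3 rises and 3 falls for H3K4me3, S5, S2, and H2A.Z and 1 of each for the other antibodies, or for the largest change where none passed. The genes, lists, and alternatives were chosen with earlier results of these data known.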

Additional observations from a re-analysis of the deposited data

How the results depend on the processing

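Of the genes with values per library, no change that had passed turned its direction in an alternative, and 2 no longer passed in 1 alternative each (arg7 for S5 and aro1 for H3K9me3). Of the other ORF changes that passed, the H3K4me3 rises of arg5 and lys4 turned to −0.14 and −0.21 and the H2A.Z rises of arg12 and met26 to −0.07 and −0.0041 relative to H3. Of the counts, 196 stayed within 1.5 times and 34 did not, and the cause was not tested. With no replicate block, H3 had 17 genes up and 1 down, S2 had 4 down, and H3K9me3 had 0 up. Of all windows, 1208 were then up and 784 down of 6580 for H3, 150 down of 6579 for S2, and 0 up for H3K9me3. With library totals, S2 had 6 down (202 of all 6579 windows) and H3K9me3 1 down (459 of 6574). S5 in plus-strand TSS windows then had 2 up (1027 of 3255). The median of all windows was 0.20 for H3K4me3 and 0.10 for S5 in TSS windows and −0.10 for H3K4me3 in ORF windows. With a pseudocount of 5, H3K9me3 had 2 up (731 of all 6574 windows). Relative to H3, H3K4me3 had 7 up in ORF windows (37.7% of all windows) and S5 2 up (26.7%). S2 then had 1 up (11.6%) and 21 down (14.3%), and H3K9me3 2 up (10.5%). With all 6 libraries and the replicate block, S2 had 1 up and 15 down. Leaving out each replicate gave, in ORF windows, 15 to 22 down for H3K4me3, 0 to 1 up for S5, 0 to 1 up and 9 to 17 down for S2, 4 to 15 up and 0 to 5 down for H3, 0 to 2 up and 0 to 2 down for H3K9ac, 0 to 1 down for H3K9me2, and 1 to 2 up and 0 to 2 down for H3K9me3. For S5 in TSS windows it gave 0 to 2 up on the plus strand and 0 to 1 up and 8 to 21 down on the minus strand. Of the left-out replicates, the fewest S5 falls in ORF windows came without replicate 3 (24) and the most without replicate 1 (37). Over the left-out replicates, 31.0% to 42.5% of all ORF windows were down for H3K4me3. For H3, 5.93% to 27.1% were up and 0.304% to 23.4% down. For H3K9ac, 0% to 7.29% were up and 0% to 12.9% down. For H3K9me2, 0.715% to 5.19% were down, and for H3K9me3 2.49% to 14.5% were up and 1.23% to 8.72% down. Without replicate 2 or 3, 16.8% to 17.3% were up for S5, and for S2 4.97% to 14.8% up and 2.95% to 14.7% down. The 3 shallowest libraries were V libraries of H3K9me2 and H3K9me3 (856936 to 1182100 reads in ORF windows).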
